A study of Mus musculus with 18 samples.

Results

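The interferon-stimulated antiviral effector genes described here are a list of 34 mouse genes, chosen by name as genes that interferon switches on and that act against viruses or steer that response. Class I antigen presentation genes, guanylate-binding GTPases and a separate group of cytosolic RNA or DNA sensors are not in the list. Oas1a, Oas2 and Eif2ak2, whose products bind double-stranded RNA, are in it. All 34 were found among the 24445 gene symbols of the expression table, with 1 transcript used per symbol. A level of at least 1 FPKM in at least 2 libraries was required for a test, and 32 members met it; FPKM is a count of sequenced fragments scaled to exon length and to the reads mapped in the library. The 2 members that did not, Mx1 and Ifitm1, are given by their values.

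The cells were fibroblasts, cultured directly from tail tips of mice aged 2 months and used at passage 5. Homozygous cells carried 2 copies of Pro, an allele that the labels name without defining it, in a study of progeria mice, with 1 copy of a Cas9 transgene, written Pro/Pro;Cas9/+. Heterozygous cells carried 1 copy of Pro and no Cas9 transgene, written Pro/+; +/+. Wild-type Cas9 cells had no Pro allele and 1 copy of the transgene, written +/+;Cas9/+. Heterozygous cells thus differ from each other genotype in both Pro and Cas9, which cannot be told apart in comparisons with them. Each culture received lentivirus with an mCherry reporter and 1 of 3 guide RNAs, either gLmna-1 or gLmna-2, which target Lmna, or gMock, which matches no site in the genome. All cultures, gMock ones included, were therefore transduced, and no untransduced culture is among the samples. Polybrene was used at 4 µg per ml in all cultures. Each of the 9 groups held 2 libraries from 2 mice, 18 libraries from 6 mice in all, and every mouse gave 1 library per treatment. Replicate 2 of the heterozygous cells has a label with a pair of numbers, which leaves unclear whether animals were pooled. More than 80% of the cells were mCherry positive by microscopy, no sorting or selection was done, and the promoter that drives Cas9 is not given in the sources used here.

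Interferons are secreted proteins that bind receptors on the cell surface. The receptors act through the kinases JAK1 and TYK2 on transcription factors, STAT2 and IRF9 among them, which enter the nucleus as a complex. That complex binds a short element, the interferon-stimulated response element, near the start of many antiviral genes. In fibroblasts, which make interferon beta themselves when they sense viral nucleic acid, the same genes are kept at a low level by weak tonic signalling, and several of them, Irf7, Irf9 and Stat2 among them, raise the response further.

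Promoter stretches of some members are shown first, chosen because a match to the core of the interferon-stimulated response element is visible in them. They are the 250 bases before the annotated start in RefSeq (GRCm38.p6, the mm10 build), read 5′ to 3′ on the strand of the gene, and capitals mark the GAAA repeat at the core of the element, written here as GAAA, then any 2 bases, then GAAA again, on either strand.
Isg15 (chr4:156200819-156201068, minus strand): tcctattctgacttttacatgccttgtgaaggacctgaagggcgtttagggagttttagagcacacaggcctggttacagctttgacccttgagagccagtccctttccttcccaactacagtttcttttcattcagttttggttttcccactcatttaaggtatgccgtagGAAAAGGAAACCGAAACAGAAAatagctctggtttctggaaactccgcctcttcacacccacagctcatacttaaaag
Ifit1 (chr19:34640639-34640888, plus strand): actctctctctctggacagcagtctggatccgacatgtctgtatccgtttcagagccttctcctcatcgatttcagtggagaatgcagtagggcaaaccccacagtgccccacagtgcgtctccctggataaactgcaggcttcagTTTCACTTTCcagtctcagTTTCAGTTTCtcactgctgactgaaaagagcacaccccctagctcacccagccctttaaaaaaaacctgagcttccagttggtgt
Ifit3 (chr19:34583279-34583528, plus strand): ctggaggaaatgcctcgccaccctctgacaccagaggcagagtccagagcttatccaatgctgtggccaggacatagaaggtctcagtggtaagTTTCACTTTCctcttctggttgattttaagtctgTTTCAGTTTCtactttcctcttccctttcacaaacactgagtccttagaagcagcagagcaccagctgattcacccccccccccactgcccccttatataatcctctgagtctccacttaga
Bst2 (chr8:71537473-71537722, minus strand): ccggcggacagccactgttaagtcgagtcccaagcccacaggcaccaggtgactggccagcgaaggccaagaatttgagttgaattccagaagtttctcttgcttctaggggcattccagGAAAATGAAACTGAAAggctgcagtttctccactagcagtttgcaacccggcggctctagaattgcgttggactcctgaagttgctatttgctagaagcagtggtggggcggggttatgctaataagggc
Ifitm2 (chr7:140955962-140956211, minus strand): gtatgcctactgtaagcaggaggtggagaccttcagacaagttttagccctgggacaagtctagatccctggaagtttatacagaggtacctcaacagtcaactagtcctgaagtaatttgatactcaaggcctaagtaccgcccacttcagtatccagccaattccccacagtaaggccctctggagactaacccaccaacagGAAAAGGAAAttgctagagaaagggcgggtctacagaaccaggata

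Isg15 held 3 overlapping matches, the farthest of which began 78 bases before the start, and Bst2 held 2 that overlapped, the farthest beginning 130 bases before it. Ifit1 held 2 separate matches on the opposite strand (TTTC, 2 bases, TTTC), and so did Ifit3. Ifitm2 is shown as a member that held 1 match, 46 bases before its start, yet, unlike the other 4, did not fall with the guides in wild-type cells, as given below. RefSeq windows of 250 bases before and 50 bases after the start were given for 26 of the 34 members. The GAAA repeat stood in 11 of these 26, or 42.3%, beside 3.99% of 27025 genes with a window of that length, both strands searched. These matches are letters in a window, and binding was not measured. The other 15 of the 26 held no match, among them Oasl2, Irf7, Ifi44 and Herc6, which fell in wild-type cells as given below. Ifitm3 and Eif2ak2, counted among the 11, held no match within the 250 bases before the start.

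The libraries held 22424406 to 42622056 reads, recovered from the steps in which the FPKM values rise. Fibroblast markers were abundant in all 18 libraries: the mean log2(FPKM + 1) over 12 of them was between 7.51 and 8.54. Over 11 markers of T, B and natural killer cells and of plasmacytoid dendritic cells its highest value was 0.03. Cd3e was at 0 FPKM in all 18 libraries. Bst2, a member that was also listed among these markers, was left out of the 11 and was at 22.7 to 239 FPKM. Macrophage markers were present in every library, with 14 genes measured and none at 0 in any. Lmna itself was at 299 and 291 FPKM with gLmna-1 and 333 and 272 FPKM with gLmna-2, against 381 and 317 FPKM with gMock in wild-type cells, and did not pass the test there (log2 change −0.22, SE 0.15, adjusted p = 0.76). It lay at 217 to 310.0 FPKM with the guides against 246 and 369.8 FPKM with gMock in Pro/Pro;Cas9/+ cells, and at 196 to 291 FPKM with the guides against 236 and 243 FPKM with gMock in Pro/+; +/+ cells. The guides act on the DNA of Lmna, so its RNA level is a weak check of the labels.

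**Figure D1:**
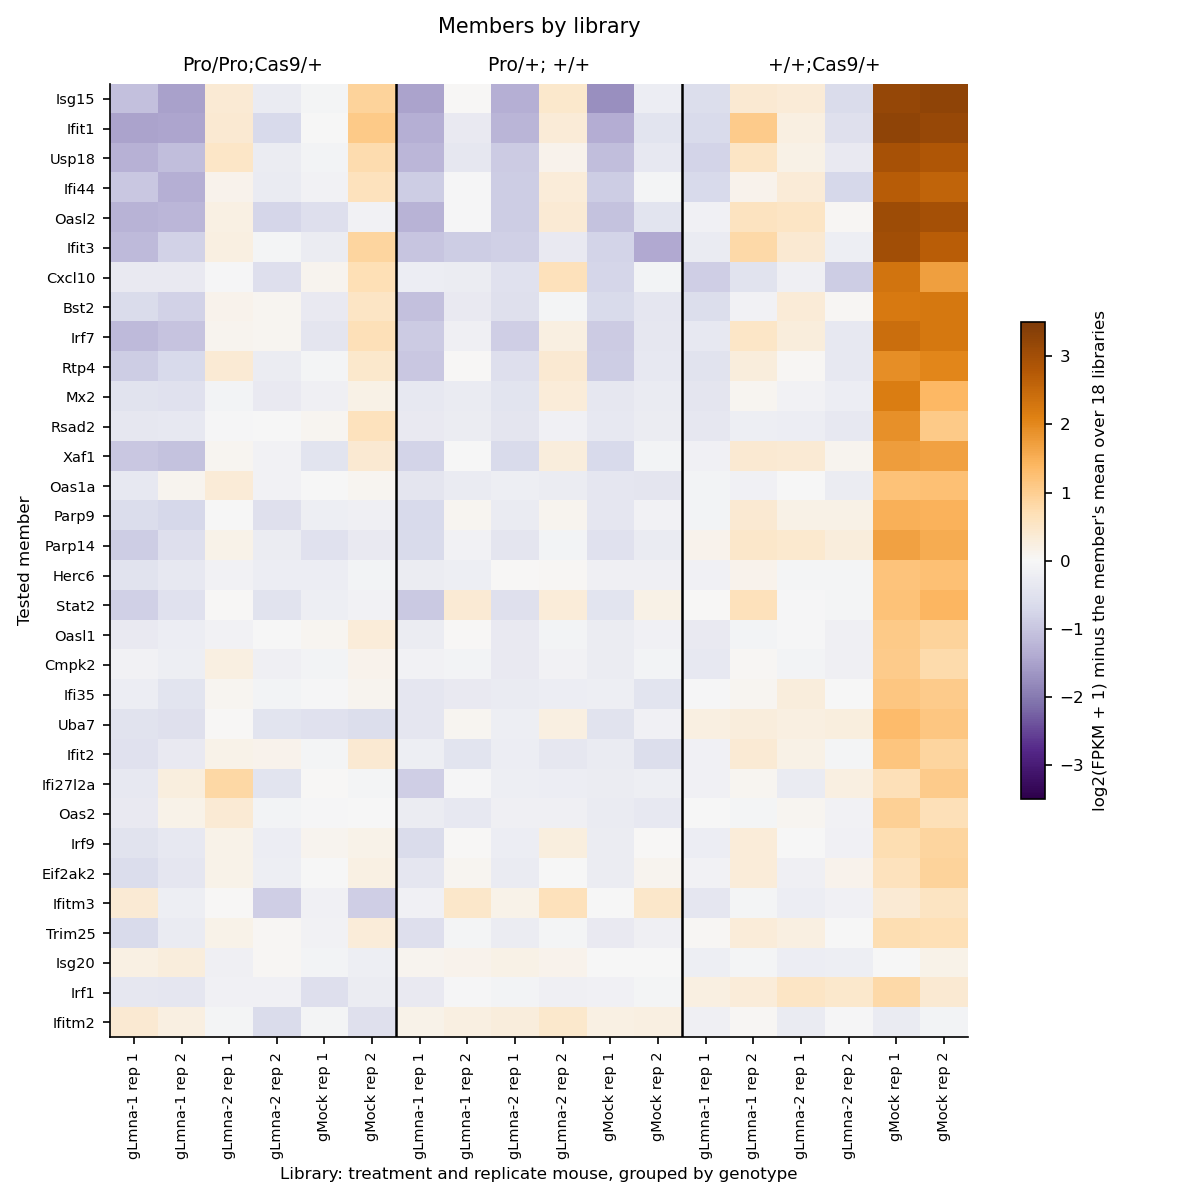
Heat map of the 32 tested members (rows, ordered by their change in wild-type cells) in the 18 libraries (columns, by genotype, treatment and replicate mouse). Colour gives log2(FPKM + 1) minus the member's mean over the 18 libraries, and the 2 libraries of +/+;Cas9/+ cells with gMock, at the right, hold the highest levels of 27 members.

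The Lmna guides were compared with gMock within each genotype. In wild-type Cas9 cells most members were lower with the guides than with gMock; Irf1 and Ifitm2 overlapped, and Ifitm1 had fewer reads with gMock. Of the 26 members that met the filter without the help of the wild-type gMock libraries, 21 fell with the 2 guides averaged and 0 rose (limma, adjusted p under 0.05 over all genes), beside 0.717% of the 12550 genes that met it in the same way and fell. The median log2 change of these 26 was −1.28. The other 6 tested members, Oas1a, Oas2, Oasl1, Rsad2, Mx2 and Cmpk2, met the filter only through the wild-type gMock libraries and so had to be high there. Over all 32 tested members 26 fell and 0 rose, beside 0.825% of 12599 genes that fell and 0.0238% that rose. Their median log2 change was −1.28, beside −0.02 over all genes. An unadjusted p under 0.05 was found for 30 of the 32, beside 7.61% of all genes. These 32 include the 6 that had to be high in the wild-type gMock libraries. A count model on the recovered reads, limma voom, called 25 members, and its share over all genes is not given here. Of the 104 genes of the whole table that fell, 26 were members. Of the 90 that fell and met the filter without the wild-type gMock libraries, 21 were members. In RNA from whole cultures, fewer cells that express a gene and less RNA per cell cannot be told apart.

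Both wild-type gMock libraries lay above all 4 wild-type guide libraries for 30 of 32 members, the exceptions being Irf1 and Ifitm2, beside 10.8% of all genes. They lay above all other 16 libraries of the study for 27 members, beside 2.17% of all genes; Isg20, Irf1, Ifi27l2a, Ifitm2 and Ifitm3 were the other 5. Over the 26 members that met the filter without these 2 libraries, the counts were 24, beside 10.7% of the genes that did so, and 21, beside 2.04%. The mean log2(FPKM + 1) over the 34 members lay between 2.21 and 2.98 in the other 16 libraries, against 4.26 and 4.15 in these 2. These 2 libraries stand apart from the rest, and member counts that use them are given below with and without them. Summed over 14 genes, macrophage markers reached 178 to 462 FPKM in the 4 wild-type guide libraries, against 293 and 79.4 FPKM in the 2 gMock libraries, so that gMock was the lowest library of each mouse; their part in the members' change was not tested.

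The result rests on both wild-type gMock libraries. Without that of replicate 1 the median was −1.18 and without that of replicate 2 it was −1.28, but 0 members passed in either case, when 1 mouse alone carries the comparison. With only the wild-type libraries in the fit 10 members passed, and the share of all genes in that fit is not given here. Within replicate 1 the gMock level was a median of 3.92 times the mean of the 2 guide libraries of the same mouse. Within replicate 2 it was 3.65 times, over the 32 members in both cases. These include Oas1a, Oas2, Oasl1, Rsad2, Mx2 and Cmpk2, which met the filter only through the wild-type gMock libraries. Each of them lay above the median in both mice, so the medians are raised by the filter.

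Isg15 encodes a small ubiquitin-like protein that is joined to other proteins during infection. It was at 12.9 and 26.3 FPKM with gLmna-1 and 25.5 and 12.4 FPKM with gLmna-2, against 189 and 201 FPKM with gMock (log2 change −3.35, SE 0.38, adjusted p = 0.0047). The 4 guide libraries lay within the range of the other genotypes, and the 2 gMock libraries were above all others in the study. Usp18 removes ISG15 from proteins and also dampens the receptor IFNAR2. It was at 1.64 and 5.5 FPKM with gLmna-1 and 4.07 and 2.64 FPKM with gLmna-2, against 33.7 and 31.4 FPKM with gMock (log2 change −2.99, SE 0.37, adjusted p = 0.0057). Uba7, the enzyme that activates ISG15, and Herc6, the ligase that attaches it in mice, moved less, by −0.97 (SE 0.11) and −1.27 (SE 0.10) on the log2 scale, yet both passed. Herc6 had 2.03 and 2.66 FPKM with gLmna-1 and 2.19 and 2.19 FPKM with gLmna-2, against 6.68 and 7.01 FPKM with gMock, and its adjusted p of 0.0025 was the smallest of the list.

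The IFIT proteins bind viral RNA and block its translation. Ifit1 was at 5.6 and 20.6 FPKM with gLmna-1 and 11.3 and 6.2 FPKM with gLmna-2, against 99.5 and 91.5 FPKM with gMock (log2 change −3.18, SE 0.50, adjusted p = 0.019). Ifit3 stood at 11.3 and 25 FPKM with gLmna-1 and 18.5 and 11.9 FPKM with gLmna-2, against 121 and 95.1 FPKM with gMock (log2 change −2.69, SE 0.38, adjusted p = 0.0095). For both, the highest guide library was that of replicate 2 with gLmna-1, and no guide library came near the gMock ones. Ifit2 moved less, with 7.98 to 11.8 FPKM over the 4 guide libraries against 21.1 and 17.6 FPKM with gMock (log2 change −0.94, adjusted p = 0.028). Ifit3 has a near-identical copy beside it, Ifit3b, which was at 0.973 to 3.3 FPKM with the guides and at 21.2 and 15.6 FPKM with gMock. How reads were divided between the copies is not given in the sources used here, so each level is uncertain.

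The 2′-5′-oligoadenylate synthetase genes encode enzymes that, once bound to double-stranded RNA, make the signal that activates RNase L. The like proteins encoded by Oasl1 and Oasl2 belong to the same family. Oasl2 was the most abundant, at 2.58 and 4.97 FPKM with gLmna-1 and 4.71 and 3.11 FPKM with gLmna-2, against 32.3 and 30.1 FPKM with gMock (log2 change −2.76, SE 0.30, adjusted p = 0.0042). Oasl1 and Oas1a were near the floor with the guides, at 0.0488 to 0.266 FPKM and 0.249 to 0.487 FPKM, and had 1.75 and 1.43 FPKM and 2.44 and 2.52 FPKM with gMock; both fell (adjusted p = 0.0042 and 0.0057). Oas2 had the same order, with 0.232 to 0.394 FPKM with the guides against 1.63 and 1.14 FPKM with gMock, but its adjusted p was 0.066. Changes of such low genes are understated on the log2(FPKM + 1) scale. Oasl1, Oas1a and Oas2 met the filter only through the wild-type gMock libraries and so had to be high there.

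Rsad2, or viperin, makes a nucleotide that ends viral RNA chains, and Cmpk2, its neighbour in the genome, supplies the nucleotide it starts from. Rsad2 was at 0.191 and 0.329 FPKM with gLmna-1 and 0.299 and 0.214 FPKM with gLmna-2, against 4.69 and 2.28 FPKM with gMock (log2 change −1.78, SE 0.19, adjusted p = 0.0042). The gMock library of replicate 1 was the higher of the pair, and all 4 guide libraries were far below both. Cmpk2 reached 1.82 and 1.36 FPKM with gMock and stayed at 0.0754 to 0.409 FPKM with the guides (log2 change −1.06, adjusted p = 0.018). The Mx genes encode dynamin-like GTPases that trap viral particles. Mx2 was at 0.201 and 0.681 FPKM with gLmna-1 and 0.469 and 0.372 FPKM with gLmna-2, against 6.18 and 3.14 FPKM with gMock (log2 change −1.94, SE 0.25, adjusted p = 0.0064). Mx1, whose listed transcript is a non-coding form, had 6 and 8 reads with gLmna-1 and 3 and 4 reads with gLmna-2, against 73 and 67 reads with gMock, and at most 9 reads in each of the other 16 libraries of the study. When no filter on low values was applied, Mx1 passed as well (log2 change −0.89, SE 0.08, adjusted p = 0.0066). Rsad2, Cmpk2 and Mx2 met the filter only through the wild-type gMock libraries and so had to be high there.

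Bst2, or tetherin, holds budding virus particles at the cell surface. It was the most abundant member of the called ones apart from Ifitm3, at 32.4 and 45.6 FPKM with gLmna-1 and 63.4 and 51.2 FPKM with gLmna-2, against 234 and 239 FPKM with gMock (log2 change −2.31, SE 0.21, adjusted p = 0.0031). The IFITM proteins sit in membranes and hinder the fusion of viruses with the cell. Ifitm3 was at 398 and 500.3 FPKM with gLmna-1 and 441 and 471 FPKM with gLmna-2, against 680.3 and 764 FPKM with gMock (log2 change −0.68, SE 0.09, adjusted p = 0.0062). All 4 guide libraries of wild-type cells were below both gMock libraries, but Ifitm3 was as high in some libraries of the other genotypes. Ifitm2, at 183 to 234 FPKM with the guides against 184 and 209 FPKM with gMock, showed overlapping groups and did not pass (log2 change 0.08, adjusted p = 0.85). Ifitm1 never exceeded 1.16 FPKM, and in wild-type cells it had 10 and 8 reads with gLmna-1 and 11 and 6 reads with gLmna-2, against 2 and 3 reads with gMock. It was the only member called higher with both guides in these cells, and only when no filter was applied (log2 change 0.36, SE 0.05, adjusted p = 0.022).

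**Figure D2:**
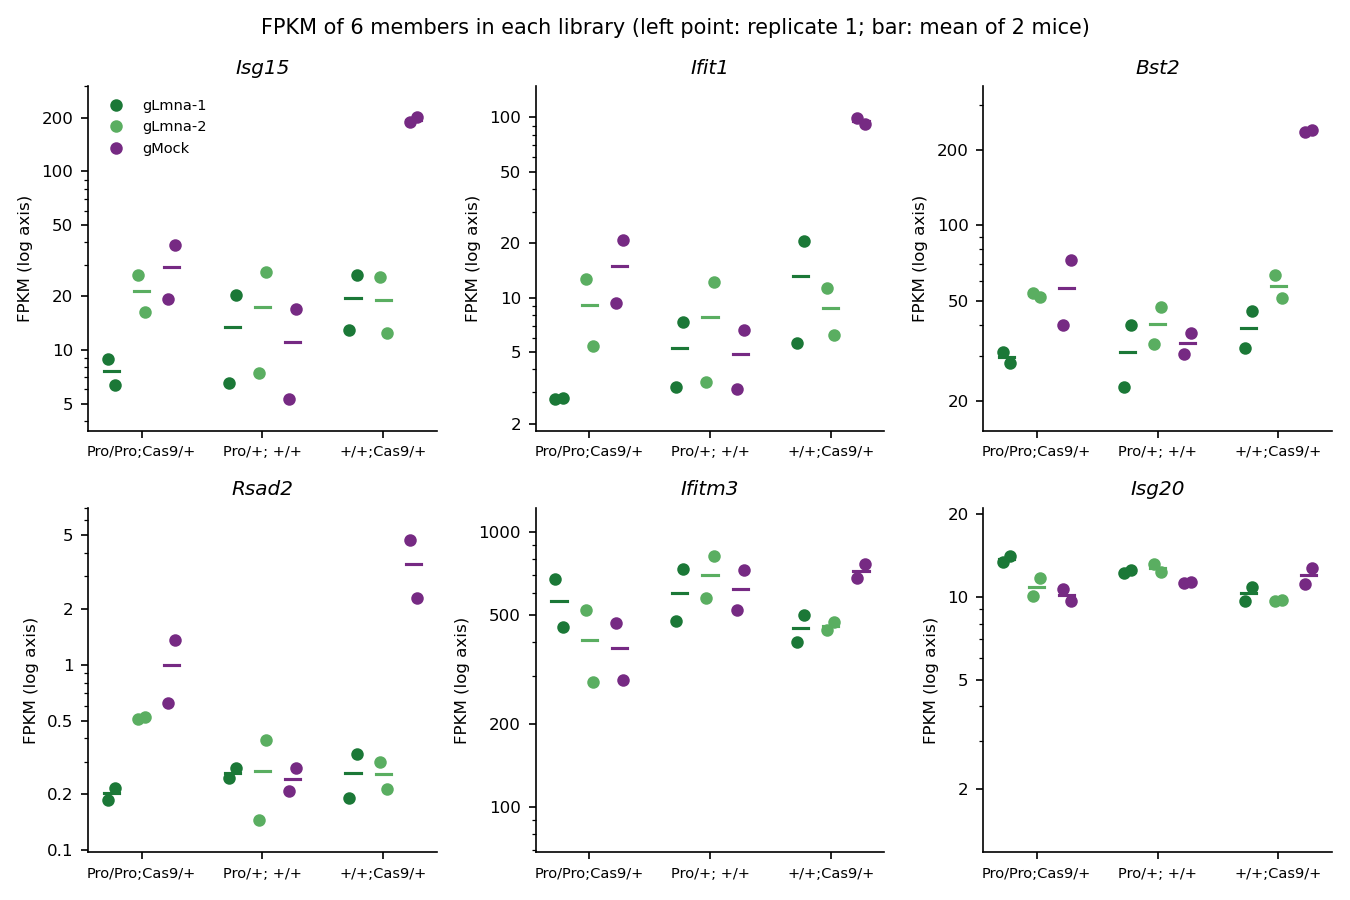
FPKM on a log axis of Isg15, Ifit1, Bst2, Rsad2, Ifitm3 and Isg20 in the 9 groups; points are libraries, with replicate 1 on the left, and bars are means of the 2 mice. Isg15 reached 189 and 201 FPKM in the +/+;Cas9/+ gMock libraries, while Isg20 stayed between 9.64 and 14.1 FPKM in all 18.

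Among the transcription factors of the list, Irf7, which drives the later wave of interferon genes, moved most. It was at 4.22 and 8.44 FPKM with gLmna-1 and 7.08 and 4.25 FPKM with gLmna-2, against 34.2 and 30.8 FPKM with gMock (log2 change −2.31, SE 0.29, adjusted p = 0.0062). Stat2 and Irf9, whose products act in 1 complex downstream of the interferon receptors, moved less. Stat2 was at 10.6 and 17.1 FPKM with gLmna-1 and 10.1 and 10.0 FPKM with gLmna-2, against 25.9 and 29.7 FPKM with gMock (log2 change −1.18, SE 0.19, adjusted p = 0.022), and Irf9 at 10.3 and 15.5 FPKM with gLmna-1 and 12.1 and 10.9 FPKM with gLmna-2, against 21 and 23.8 FPKM with gMock (log2 change −0.84, SE 0.15, adjusted p = 0.037). For each of the 3, no guide library reached the lower gMock library. Irf1, the activator induced most strongly by interferon gamma, did not pass: 17.5 to 22 FPKM with the guides overlapped 26.7 and 19.7 FPKM with gMock (log2 change −0.22, adjusted p = 0.71).

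The remaining called members have varied roles. Cxcl10, a chemokine that draws T cells, was at 0.566 and 1.02 FPKM with gLmna-1 and 1.51 and 0.544 FPKM with gLmna-2, against 13 and 8.31 FPKM with gMock (log2 change −2.61, SE 0.30, adjusted p = 0.0047). Ifi44, an antiviral protein of the cytoplasm, stood at 3.38 and 6.66 FPKM with gLmna-1 and 7.96 and 3.29 FPKM with gLmna-2, against 45.8 and 41.2 FPKM with gMock (log2 change −2.89, SE 0.34, adjusted p = 0.0049). For both, every guide library was below every gMock library. Rtp4, a chaperone of receptors that also binds viral replication machinery, was at 3.51 and 6.66 FPKM with gLmna-1 and 5.5 and 3.96 FPKM with gLmna-2, against 23 and 25.2 FPKM with gMock (log2 change −2.12, SE 0.25, adjusted p = 0.0053). Xaf1, an inhibitor of XIAP that favours cell death, was at 4.52 to 7.16 FPKM with the guides against 19.4 and 18.7 FPKM with gMock (log2 change −1.52, SE 0.22, adjusted p = 0.011). Neither overlapped between guides and gMock.

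Parp9 and Parp14 belong to the family of ADP-ribosyltransferases. Parp9 was at 6.82 to 10.0 FPKM with the guides against 22.7 and 22.3 FPKM with gMock (log2 change −1.32, SE 0.15, adjusted p = 0.0049). Parp14 was at 2.53 to 3.51 FPKM with the guides against 9.39 and 8.57 FPKM with gMock (log2 change −1.29, SE 0.16, adjusted p = 0.0064). Neither had a guide library near the gMock ones. Ifi35, a partner of NMI, was at 16.4 to 21.1 FPKM with the guides against 38.8 and 36.7 FPKM with gMock (log2 change −1.03, SE 0.11, adjusted p = 0.0042). Uba7 was at 3.53 to 3.75 FPKM with the guides against 8.6 and 7.45 FPKM with gMock. Eif2ak2, the kinase PKR, which halts translation when it binds double-stranded RNA, had a smaller gap, at 10.5 to 15.4 FPKM with the guides against 19.1 and 23.9 FPKM with gMock (log2 change −0.73, SE 0.11, adjusted p = 0.018).

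Besides Oas2, Irf1 and Ifitm2, the tested members that did not pass were Trim25, Ifi27l2a and Isg20. Trim25, a ligase that activates RIG-I, was at 9.3 to 12 FPKM with the guides against 16.3 and 16 FPKM with gMock (log2 change −0.57, adjusted p = 0.22). Ifi27l2a was at 1.54 to 2.69 FPKM with the guides against 3.99 and 5.51 FPKM with gMock (log2 change −0.91, adjusted p = 0.52). Isg20, an RNA exonuclease, differed little, with 9.64 to 10.9 FPKM with the guides against 11.2 and 12.8 FPKM with gMock (log2 change −0.24, adjusted p = 0.51). All 3 nevertheless had both gMock libraries above all 4 guide libraries. Among members with a promoter window, 10 of 11 tested members with the GAAA repeat fell, with a median log2 change of −1.78. Without the repeat 11 of 14 fell, with a median of −1.04. Over all genes 0.825% fell. Oas1a and Rsad2 with the repeat, and Oasl1 and Cmpk2 without it, met the filter only through the wild-type gMock libraries. They therefore had to be high there. Whether the repeat had a part in the change was not tested.

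Each guide was also set against gMock alone, and both comparisons share the 2 gMock libraries. With gLmna-1, 21 members fell and 0 rose, beside 0.667% of all genes that fell and 0.0238% that rose. With gLmna-2, 23 fell and 0 rose, beside 0.54% and 0.0238% of all genes. Of the 26 members that met the filter without the gMock libraries, 16 fell with gLmna-1 and 19 with gLmna-2, beside 0.566% and 0.446% of such genes. The median log2 changes over the 32 were −1.28 and −1.30. Without the gMock library of replicate 1 they gave 0 and 4 members, and without that of replicate 2 both gave 0. Of the guide libraries, replicate 1 decided for gLmna-1, which gave 0 without it, while gLmna-2 gave 3 without its replicate 1 and 0 without its replicate 2. Of the members, 20 fell with both guides, an overlap that the shared gMock libraries favour. Some of the 20 met the filter only through those libraries, and the same overlap was not counted over all genes. Cmpk2, which met the filter only through the wild-type gMock libraries, was called with gLmna-1 alone, and Eif2ak2, Stat2 and Ifit1 with gLmna-2 alone. gLmna-2 against gLmna-1, a comparison with no gMock library, gave 0 members (0.0% of all genes higher and 0.0% lower) and 0 by voom. At an unadjusted p under 0.05 there was 1 member, beside 8.01% of all genes. The largest difference by p was in Bst2 (log2 difference 0.55, SE 0.25, adjusted p = 0.62), which was at 63.4 and 51.2 FPKM with gLmna-2 and 32.4 and 45.6 FPKM with gLmna-1.

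**Figure D3:**
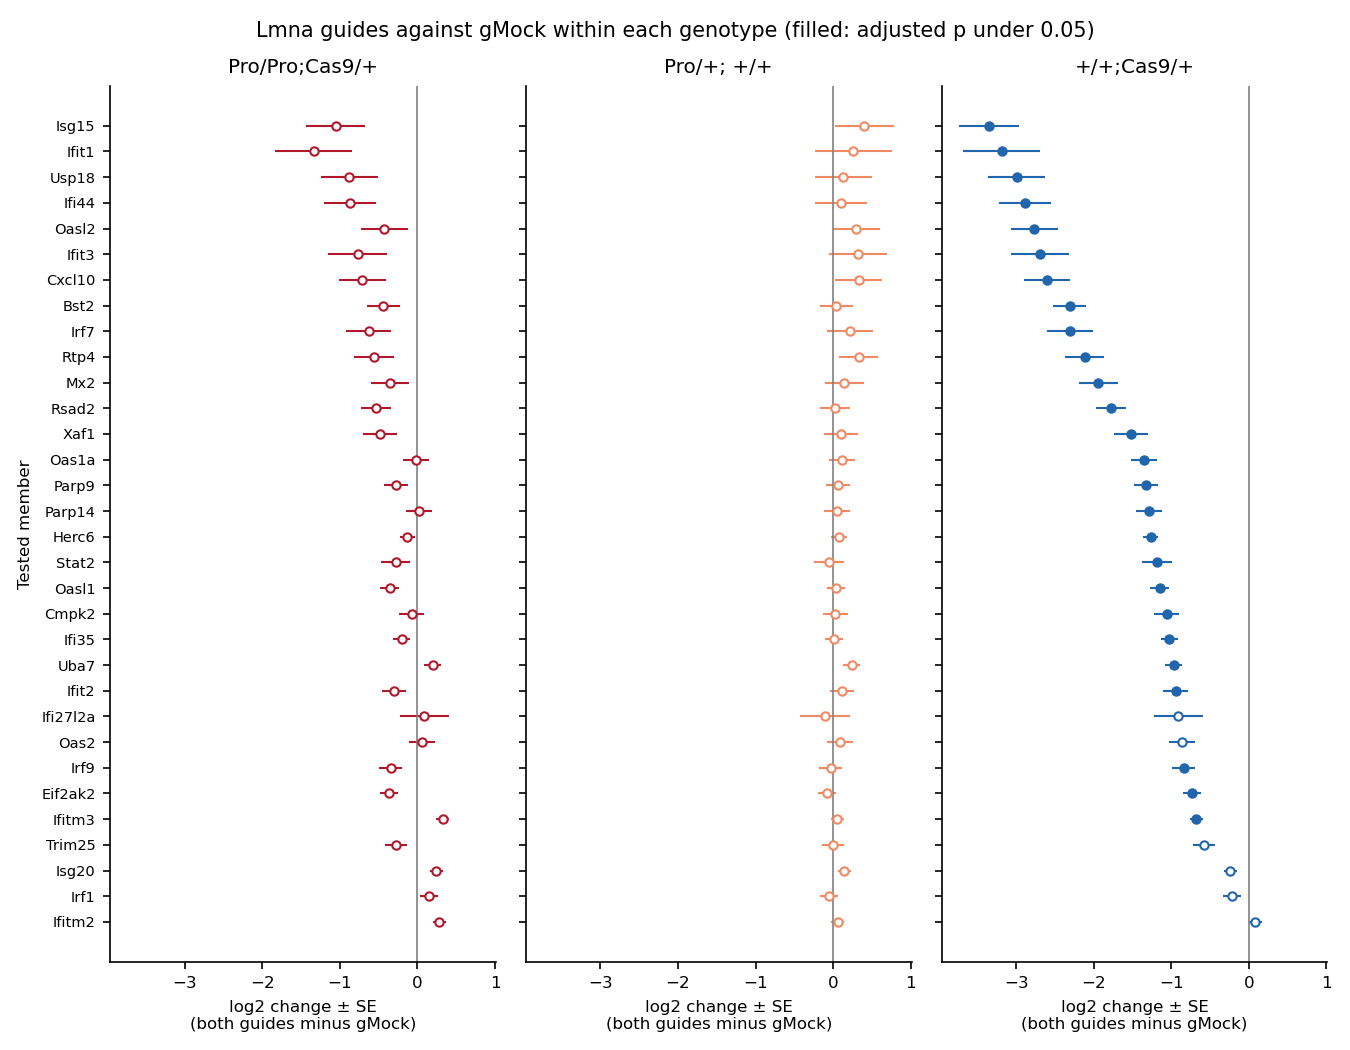
Log2 change of the 32 tested members with both Lmna guides minus gMock, in the 3 genotypes; bars are standard errors and filled points have an adjusted p under 0.05. The changes run from −3.35 to 0.08 in +/+;Cas9/+ cells, and no point is filled in Pro/Pro;Cas9/+ or Pro/+; +/+ cells.

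In Pro/Pro;Cas9/+ cells, where the guides meet both the Cas9 nuclease and the Pro allele, no member passed the test with both guides together. With both guides against gMock 0 members passed (0.0794% of all genes rose and 0.0% fell), and voom called 0. The median log2 change was −0.32, beside −0.01 over all genes, and 12 members had an unadjusted p under 0.05, beside 8.37% of all genes. Both gMock libraries lay above all 4 guide libraries for 3 members, Oasl1, Rsad2 and Cxcl10, beside 4.0% of all genes, and all 4 guide libraries lay above gMock for 0 members, beside 3.6%.

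By level, the 2 guides were unlike in these cells. Isg15 was at 8.92 and 6.37 FPKM with gLmna-1 and 26.3 and 16.3 FPKM with gLmna-2, against 19.2 and 38.8 FPKM with gMock. Both gLmna-1 libraries were the lowest, and the gLmna-2 libraries lay on either side of the lower gMock library. Usp18 was at 0.829 and 1.08 FPKM with gLmna-1 and 5.41 and 2.74 FPKM with gLmna-2, against 3.2 and 6.66 FPKM with gMock. Ifit1 stood at 2.74 and 2.78 FPKM with gLmna-1 and 12.7 and 5.43 FPKM with gLmna-2, against 9.29 and 20.8 FPKM with gMock. The order was the same in both, with gLmna-1 at the bottom and the 2 mice apart under the other treatments.

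Ifit3 was at 5.62 and 7.55 FPKM with gLmna-1 and 16.7 and 13.2 FPKM with gLmna-2, against 11.6 and 26.8 FPKM with gMock. Oasl2 stood at 0.626 and 0.703 FPKM with gLmna-1 and 3.56 and 1.35 FPKM with gLmna-2, against 1.68 and 2.67 FPKM with gMock. In both, the gLmna-1 libraries were again below all others of this genotype. Cxcl10 was at 1.29 and 1.29 FPKM with gLmna-1 and 1.75 and 0.919 FPKM with gLmna-2, against 2.04 and 3.63 FPKM with gMock, and its 4 guide libraries were all below gMock. Bst2 was at 31.3 and 28.1 FPKM with gLmna-1 and 53.6 and 51.5 FPKM with gLmna-2, against 39.9 and 72.6 FPKM with gMock. Irf7 stood at 1.97 and 2.23 FPKM with gLmna-1 and 6.05 and 5.98 FPKM with gLmna-2, against 3.97 and 9.45 FPKM with gMock. In these 2, gLmna-2 lay between the gMock libraries in both mice.

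Against gMock, gLmna-1 gave 0 members that fell, beside 0.373% of all genes, and 2 that rose, beside 0.603%. Ifitm2 was at 299.6 and 267 FPKM with gLmna-1 and 214 and 144 FPKM with gLmna-2, against 217 and 155 FPKM with gMock (log2 change 0.62, SE 0.10, adjusted p = 0.032 for gLmna-1). Ifitm3 was at 676 and 452 FPKM with gLmna-1 and 524 and 285 FPKM with gLmna-2, against 469.7 and 289 FPKM with gMock (log2 change 0.58, SE 0.10, adjusted p = 0.039 for gLmna-1). Ifitm2 with gLmna-1 lay above every gMock library of this genotype, whereas the Ifitm3 ranges overlapped with replicate 1 higher under each treatment. Over all 32 tested members, 27 log2 changes were negative, the median was −0.51, beside −0.03 over all genes, and 22 had an unadjusted p under 0.05, beside 2265 of 12599 genes in all. Isg15 changed by −1.73 (SE 0.44, adjusted p = 0.097) and Ifit1 by −2.0 (SE 0.57, adjusted p = 0.13) on the log2 scale, neither of which passed. Both gLmna-1 libraries were below both gMock libraries for 24 members, beside 18.4% of all genes. Voom also called 2 members; 0 passed without replicate 2 of gMock or of gLmna-1, with quantile normalization or without a filter, and 4 passed without replicate 1 of gLmna-1.

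gLmna-2 gave 0 members in either direction (0.349% of all genes rose and 0.00794% fell), 0 by voom, and a median of −0.04. An unadjusted p under 0.05 was found for 1 member, beside 10.1% of all genes. The mice disagreed under gLmna-2. In replicate 1 the gLmna-2 library was below gMock for 5 of 32 members, beside 40.7% of all genes, and in replicate 2 for 28, beside 50.1%. Isg15, for instance, was at 26.3 FPKM with gLmna-2 against 19.2 FPKM with gMock in replicate 1, and at 16.3 FPKM with gLmna-2 against 38.8 FPKM with gMock in replicate 2. Summed macrophage markers were at 502 and 1289 FPKM with gLmna-1 and at 1664 and 912 FPKM with gLmna-2, against 639.8 and 828 FPKM with gMock; their part in these values was not tested.

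gLmna-2 against gLmna-1 gave 3 members. Xaf1 rose, beside 6.92% of all genes; it was at 5.38 and 4.68 FPKM with gLmna-2 and 2.15 and 1.98 FPKM with gLmna-1 (log2 change 0.97, SE 0.25, adjusted p = 0.043). Ifitm2 and Ifitm3 fell, beside 3.02% of all genes, by 0.68 (SE 0.10) and 0.52 (SE 0.10) on the log2 scale, with adjusted p of 0.006 and 0.015. The median over the 32 was 0.38, beside 0.06 over all genes. An unadjusted p under 0.05 was found for 19, beside 25.2% of all genes. The 3 of 32 members called are a share close to that of all genes, and leaving out replicate 1 of gLmna-2 left 1.

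In Pro/+; +/+ cells, which have no Cas9 transgene, no member passed with either guide or both. With both guides, with gLmna-1, with gLmna-2 and between the guides, 0.0% of all genes rose and 0.0% fell, and voom called 0 members in each. The median over the members was 0.08 with both guides. The number with an unadjusted p under 0.05 was 0 with both guides, 0 with gLmna-1, 1 with gLmna-2 and 1 between the guides. Over all genes the shares were 3.15%, 1.37%, 4.49% and 2.11%, in that order. Isg15 was at 6.51 and 20.3 FPKM with gLmna-1 and 7.39 and 27.4 FPKM with gLmna-2, against 5.27 and 16.8 FPKM with gMock. Ifit1 stood at 3.17 and 7.31 FPKM with gLmna-1 and 3.43 and 12.2 FPKM with gLmna-2, against 3.11 and 6.6 FPKM with gMock. The groups overlapped in both, and replicate 2 was above replicate 1 under every treatment. Bst2 was at 22.7 and 40.0 FPKM with gLmna-1 and 33.7 and 47 FPKM with gLmna-2, against 30.6 and 37.1 FPKM with gMock. Oasl2 stood at 0.628 and 2.85 FPKM with gLmna-1 and 1.16 and 4.1 FPKM with gLmna-2, against 0.893 and 1.9 FPKM with gMock. Usp18 had 0.935 and 2.49 FPKM with gLmna-1 and 1.39 and 3.94 FPKM with gLmna-2, against 1.1 and 2.55 FPKM with gMock. The same order of the mice was seen in these 3, and their groups overlapped too.

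That difference between the 2 mice was wide in the list. All 3 libraries of replicate 2 lay above all 3 of replicate 1 for 21 of 32 members, beside 16.2% of all genes. Both gMock libraries lay above all 4 guide libraries for 0 members, beside 6.67%. Irf7 was at 2.53 and 4.82 FPKM with gLmna-1 and 2.68 and 6.81 FPKM with gLmna-2, against 2.49 and 4.13 FPKM with gMock, with replicate 2 higher throughout. Ifit3 was at 6.42 and 7.12 FPKM with gLmna-1 and 7.33 and 10.9 FPKM with gLmna-2, against 7.69 and 4.68 FPKM with gMock. Cxcl10 stood at 1.4 and 1.36 FPKM with gLmna-1 and 1.01 and 3.43 FPKM with gLmna-2, against 0.697 and 1.66 FPKM with gMock. In Ifit3 and Cxcl10 the order of the mice was not the same under every treatment. Summed macrophage markers ran the other way, with 79.6 to 164 FPKM in replicate 2 and 346 to 649.8 FPKM in replicate 1 over the 3 treatments; their part was not tested.

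The levels of the remaining called members in these 2 genotypes can be given by their range over 6 libraries each. Herc6 lay at 1.4 to 2.16 FPKM in Pro/Pro;Cas9/+ cells and 1.79 to 2.43 FPKM in Pro/+; +/+ cells. Uba7 ranged over 1.56 to 2.93 FPKM in Pro/Pro;Cas9/+ cells and 1.76 to 3.58 FPKM in Pro/+; +/+ cells. In neither did the ranges reach the wild-type gMock libraries. Ifi35 lay at 12.2 to 18.3 FPKM in Pro/Pro;Cas9/+ cells and 12.3 to 14.8 FPKM in Pro/+; +/+ cells. Parp9 spanned 4.1 to 7.4 FPKM in Pro/Pro;Cas9/+ cells and 4.22 to 7.96 FPKM in Pro/+; +/+ cells. Parp14 was found at 0.749 to 2.58 FPKM in Pro/Pro;Cas9/+ cells and 1.03 to 2.03 FPKM in Pro/+; +/+ cells. Parp14 in Pro/+; +/+ cells stayed below every guide library of wild-type cells as well. Ifit2 lay at 5.99 to 12.2 FPKM in Pro/Pro;Cas9/+ cells and 5.64 to 7.58 FPKM in Pro/+; +/+ cells. Stat2 spanned 5.41 to 10.6 FPKM in Pro/Pro;Cas9/+ cells and 5.03 to 13.8 FPKM in Pro/+; +/+ cells. Irf9 ranged over 8.64 to 13.7 FPKM in Pro/Pro;Cas9/+ cells and 7.49 to 15.1 FPKM in Pro/+; +/+ cells. For these 3 the ranges in Pro/Pro;Cas9/+ cells overlapped those of the wild-type guide libraries given above. Eif2ak2 lay at 7.59 to 14.1 FPKM in Pro/Pro;Cas9/+ cells and 9.05 to 13.1 FPKM in Pro/+; +/+ cells. Ifi44 spanned 1.79 to 9.87 FPKM in Pro/Pro;Cas9/+ cells and 2.78 to 7.74 FPKM in Pro/+; +/+ cells. Rtp4 ranged over 2.44 to 7.6 FPKM in Pro/Pro;Cas9/+ cells and 2.23 to 7.3 FPKM in Pro/+; +/+ cells. These too overlapped the wild-type guide libraries, and none reached the wild-type gMock libraries. Xaf1 lay at 1.98 to 7.06 FPKM in Pro/Pro;Cas9/+ cells and 2.55 to 6.46 FPKM in Pro/+; +/+ cells. Oas1a spanned 0.177 to 0.883 FPKM in Pro/Pro;Cas9/+ cells and 0.114 to 0.293 FPKM in Pro/+; +/+ cells. Oasl1 ranged over 0.0395 to 0.599 FPKM in Pro/Pro;Cas9/+ cells and 0.0373 to 0.30 FPKM in Pro/+; +/+ cells. Oas1a and Oasl1 never reached 1 FPKM in these cells. Rsad2 lay at 0.188 to 1.36 FPKM in Pro/Pro;Cas9/+ cells and 0.146 to 0.391 FPKM in Pro/+; +/+ cells. Mx2 spanned 0.137 to 0.818 FPKM in Pro/Pro;Cas9/+ cells and 0.164 to 0.985 FPKM in Pro/+; +/+ cells. Cmpk2 ranged over 0.196 to 0.611 FPKM in Pro/Pro;Cas9/+ cells and 0.112 to 0.289 FPKM in Pro/+; +/+ cells. Rsad2 passed 1 FPKM in 1 of these libraries, replicate 2 of Pro/Pro;Cas9/+ cells with gMock, and Mx2 and Cmpk2 in none.

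Averaged over the 3 genotypes and 6 mice, gLmna-1 gave 8 members that fell, beside 0.198% of all genes that fell and 0.0794% that rose. They were Bst2, Herc6, Ifi35, Oasl1, Ifi44, Rsad2, Usp18 and Isg15. Of these, Oasl1 and Rsad2 met the filter only through the wild-type gMock libraries and so had to be high there. Bst2 changed by −1.19 (SE 0.14, adjusted p = 0.047) and Isg15 by −1.60 (SE 0.26, adjusted p = 0.049) on the log2 scale. With a pseudocount of 0.1 or no filter 0 passed. Without the wild-type mice 0 members passed (0.0% of all genes in either direction) and the median was −0.27. Of the members, 15 then had an unadjusted p under 0.05, beside 1156 of 12599 genes. gLmna-2 gave 0 members, beside 0.0397% of all genes that fell and 0.238% that rose, and 0 by voom. At an unadjusted p under 0.05 it had 25, beside 12.7% of all genes. Without the wild-type mice it again gave 0 (0.0%), with a median of 0.07. In that fit 1 member was at an unadjusted p under 0.05, beside 912 of 12599 genes. gLmna-2 against gLmna-1 gave 0 as well, beside 0.19% that fell and 0.762% that rose, and 0 by voom. At an unadjusted p under 0.05 there were 9, beside 17.0% of all genes. Without the wild-type mice this comparison gave 0 (0.0%), with 20 at an unadjusted p under 0.05, beside 1576 of 12599 genes.

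Whether the guide effect itself differed between genotypes was tested by the difference of the differences. Between wild-type and Pro/+; +/+ cells, 13 members differed, all more negative in wild-type cells, beside 0.294% of all genes with a lower difference and 0.0% with a higher one. Of them Oas1a, Oasl1 and Rsad2 met the filter only through the wild-type gMock libraries; over the 26 members that met it without them 10 differed, beside 0.231% of such genes. Isg15 differed by −3.75 (SE 0.54, adjusted p = 0.044), Oasl2 by −3.06 (SE 0.42, adjusted p = 0.044) and Bst2 by −2.35 (SE 0.30, adjusted p = 0.042) on the log2 scale. The other 10 were Cxcl10, Herc6, Ifi35, Ifi44, Oas1a, Oasl1, Parp9, Rsad2, Rtp4 and Uba7. Wild-type and Pro/+; +/+ cells differ in both Pro and the Cas9 transgene, which cannot be told apart here. Between Pro/Pro;Cas9/+ and wild-type cells 2 members differed, Ifitm3 by 1.0 (SE 0.12, adjusted p = 0.032) and Herc6 by 1.14 (SE 0.14, adjusted p = 0.032), each with the higher change in Pro/Pro;Cas9/+ cells, beside 0.0476% of all genes higher and 0.0% lower. At an unadjusted p under 0.05, 28 of the 32 tested members differed between Pro/Pro;Cas9/+ and wild-type cells, beside 3.03% of all genes. All 32 differences were positive, with a median of 1.09, beside 0.02 over all genes. The 32 include the members that met the filter only through the wild-type gMock libraries. Between Pro/Pro;Cas9/+ and Pro/+; +/+ cells 0 members differed (0.0% higher, 0.0% lower), and 0 by voom. An unadjusted p under 0.05 was found there for 6, beside 4.15% of all genes. The tests against wild-type cells use the same wild-type gMock libraries as before, and 0 members passed without either of them. Leaving out any other library of wild-type or Pro/+; +/+ cells also left 0 of the 13, except that 18 passed without replicate 2 of gLmna-1 in wild-type cells. A pseudocount of 0.1 gave 0 and voom gave 1. For Pro/Pro;Cas9/+ and wild-type cells the counts were 0 to 6 without any 1 library.

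**Figure D4:**
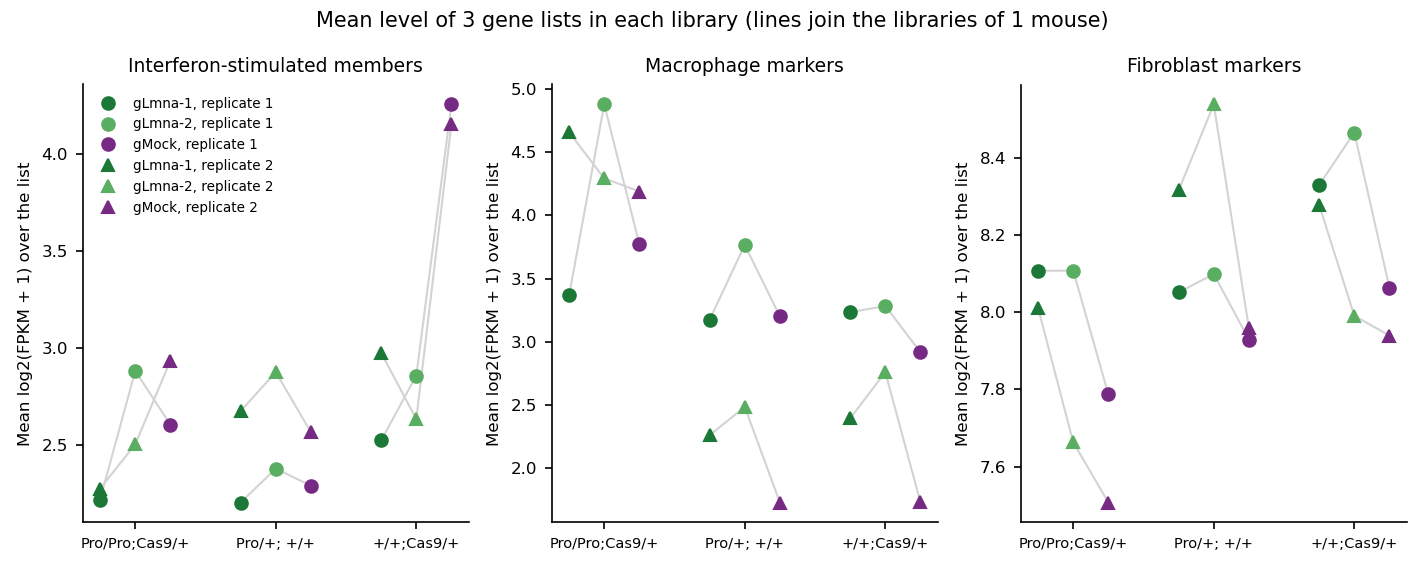
Mean log2(FPKM + 1) per library over the 34 members, 14 macrophage markers and 12 fibroblast markers, by genotype and treatment; lines join libraries of 1 mouse, with circles for replicate 1 and triangles for replicate 2. The members reach 4.26 and 4.15 in +/+;Cas9/+ gMock libraries, where the macrophage markers are at 2.92 and 1.73.

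Genotypes were compared in the gMock libraries, 1 per mouse, in which the Lmna guides play no part. Pro/Pro;Cas9/+ against wild-type cells gave 6 members that were lower and 0 that were higher, beside 0.389% of all genes lower and 0.00794% higher, and voom called 5. Oasl2 was at 1.68 and 2.67 FPKM in Pro/Pro;Cas9/+ cells, against 32.3 and 30.1 FPKM in wild-type cells (log2 change −3.36, SE 0.26, adjusted p = 0.028). The other 5 were Parp9, Parp14, Uba7, Herc6 and Ifi35, with log2 differences between −2.03 and −1.07. The median over the 32 was −1.44. Without any 1 of the 4 libraries 0 passed, and 0 passed with no filter on low values.

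Pro/+; +/+ against wild-type cells gave 13 members that were lower and 0 higher, beside 0.381% of all genes lower and 0.0317% higher, and voom called 15. Over the 26 members that met the filter without the wild-type gMock libraries 12 were lower, beside 0.367% of such genes. Ifit1 was at 3.11 and 6.6 FPKM in Pro/+; +/+ cells, against 99.5 and 91.5 FPKM in wild-type cells (log2 change −4.11, SE 0.42, adjusted p = 0.029). Ifit3 was at 7.69 and 4.68 FPKM in Pro/+; +/+ cells against 121 and 95.1 FPKM in wild-type cells (log2 change −3.95, SE 0.40, adjusted p = 0.029). The other 11 were Oasl2, Parp9, Parp14, Ifi35, Rtp4, Oas1a, Usp18, Bst2, Herc6, Ifi44 and Uba7, and the median over the 32 was −1.58. Without any 1 of the 4 libraries 0 passed. Both comparisons share the wild-type gMock libraries. Pro/+; +/+ cells differ from each other genotype in both Pro and the Cas9 transgene, which cannot be told apart here. Summed macrophage markers under gMock were at 639.8 and 828 FPKM in Pro/Pro;Cas9/+ cells and 373 and 79.6 FPKM in Pro/+; +/+ cells, against 293 and 79.4 FPKM in wild-type cells; their part was not tested. Pro/Pro;Cas9/+ against Pro/+; +/+ cells, which does not use the wild-type gMock libraries, gave 0 members (0.0% of all genes higher and 0.0% lower). Voom called 0 there. An unadjusted p under 0.05 was found for 10, beside 4.34% of all genes.

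With the gMock libraries left out, and the 2 guide libraries of each mouse averaged, a choice made after seeing the data, the differences between genotypes were smaller. Pro/Pro;Cas9/+ against wild-type cells gave 1 member, Irf1, which was lower (log2 difference −0.64, SE 0.07, adjusted p = 0.041), beside 0.389% of all genes lower and 0.206% higher, with a median over the 32 of −0.25. Irf1 was at 11 to 13.4 FPKM in the 4 guide libraries of Pro/Pro;Cas9/+ cells, against 17.5 to 22 FPKM in those of wild-type cells, with no overlap. Pro/+; +/+ against wild-type cells gave 2, Irf1 (log2 difference −0.54, SE 0.07, adjusted p = 0.025) and Ifit3 (log2 difference −0.94, SE 0.14, adjusted p = 0.031), both lower, beside 2.7% of all genes lower and 1.64% higher, with a median of −0.31. Irf1 was at 11.7 to 14.3 FPKM in the guide libraries of Pro/+; +/+ cells. Pro/Pro;Cas9/+ against Pro/+; +/+ cells gave 0 members (0.0% higher, 0.0% lower). At an unadjusted p under 0.05 there were 0, beside 1722 of 12599 genes.

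**Figure D5:**
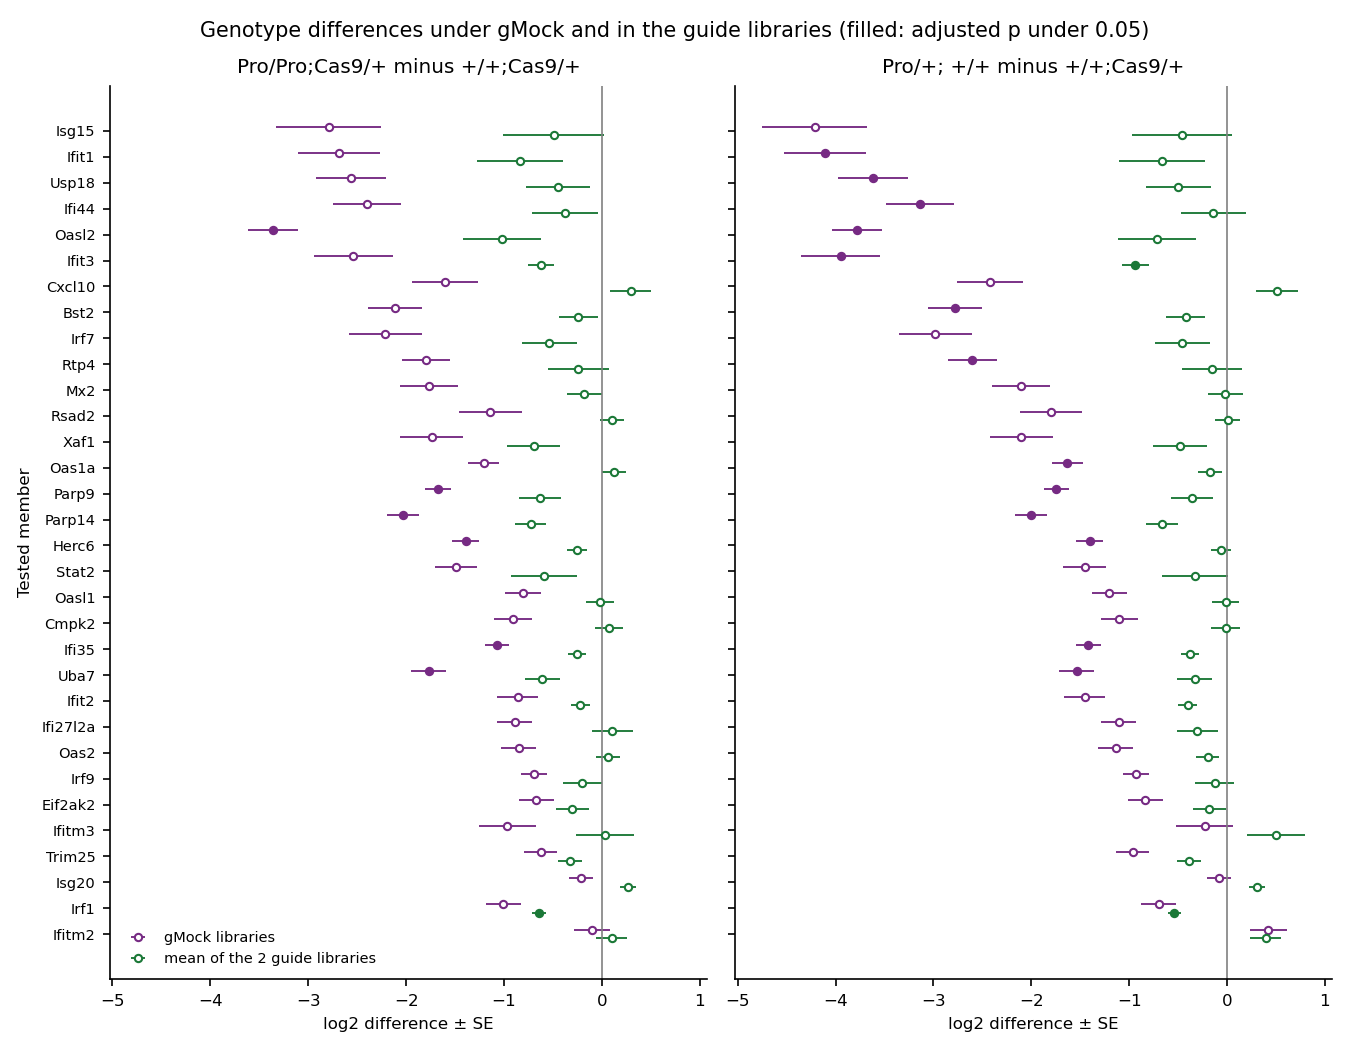
Log2 difference of the 32 tested members between Pro/Pro;Cas9/+ and +/+;Cas9/+ cells and between Pro/+; +/+ and +/+;Cas9/+ cells, in gMock libraries and in the mean of the 2 guide libraries; filled points have an adjusted p under 0.05. The median over the members is −1.44 and −1.58 under gMock, and −0.25 and −0.31 without the gMock libraries.

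Under gMock, the members that differed most between mice, among those with a mean of at least 1 FPKM over the 18 libraries, were Isg15, Oasl2, Ifit1, Usp18, Ifit3 and Cxcl10. The ratio of the highest to the lowest mouse was 38.1 in Isg15, 36.1 in Oasl2, 32 in Ifit1, 30.7 in Usp18, 25.9 in Ifit3 and 18.6 in Cxcl10. In all 6 the lowest mouse was a Pro/+; +/+ one and the highest a +/+;Cas9/+ one.

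The rest of the interferon pathway was read from lists kept apart from the members. Nmi, whose product binds IFI35, fell by this test with both guides in wild-type cells, with a log2 change of −0.77 (SE 0.14, adjusted p = 0.035). Of 8 receptors and kinases 0 passed in that comparison. An unadjusted p under 0.05 was found for 1, beside 7.61% of all genes. It was Ifnar2, the receptor chain that USP18 binds (log2 change −0.20, SE 0.06, adjusted p = 0.44). Of 8 feedback inhibitors 1 fell, Trex1, a nuclease that removes cytosolic DNA (log2 change −0.41, SE 0.07, adjusted p = 0.027).

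Of the other interferon-stimulated genes, 51 were in the table and 43 were tested. In 35 of these the filter was met without the wild-type gMock libraries, and 20 of the 35 fell and 0 rose in wild-type cells with both guides, with a median log2 change of −0.64, beside 0.717% of such genes. Over all 43, 25 fell, with a median of −0.84. Those with the smallest p were Gm4951, Oas1b, Parp10 and Parp12, with log2 changes of −1.31, −1.10, −1.26 and −0.97; Gm4951 and Oas1b reached 1 FPKM in the wild-type gMock libraries alone and so had to be high there. In the difference of guide effects between wild-type and Pro/+; +/+ cells 10 of the 43 passed, all lower, and 7 of the 35. Without either wild-type gMock library no gene of the whole table passed in these 2 comparisons, so that these calls and those of Nmi and Trex1 were lost when either was left out. The ligands themselves were hardly seen. Of 11 interferon and related ligand genes only Il15 was tested, and the other 10 never exceeded 0.0829 FPKM or 2 reads in a library, with 6 of them at 0 reads in all 18. Ifnb1, the interferon beta that fibroblasts make, had 5 reads over all libraries.

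With gLmna-2 against gLmna-1 in Pro/Pro;Cas9/+ cells, where 6.92% of all genes rose, 2 of the 43 other interferon-stimulated genes rose, Herc3 and Pml, 2 of 8 receptors and kinases, Il10rb and Jak2, 1 of 8 feedback inhibitors, Ptpn11, and Il15, the 1 ligand gene tested. With the other genotypes left out of the fit no gene of the table passed.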

How the data were processed

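Primary fibroblast RNA from 18 libraries was used; the deposited table holds 24 library columns, and the other 6 were not used here. Its values are FPKM per transcript part, deposited by the authors with part lengths in bases; per the submitters' processing notes FastQC 0.11.2, STAR 2.4.0k and HOMER were used on mm10, and strand is not given in the sources used here. Parts were joined into transcripts, weighted by length, because the planned design assumed gene rows, and each symbol was described by its transcript of highest mean. limma 3.58.1 (lmFit, eBayes with trend) was fitted to log2(FPKM + 1) for 12599 genes at 1 FPKM or more in at least 2 libraries, with Benjamini-Hochberg adjustment at 0.05: all 18 libraries with the mouse as a block (6 residual degrees of freedom), since same-numbered libraries come from 1 mouse per the labels, and the 6 gMock libraries for genotypes (3 degrees). Deviations of libraries of 1 mouse from their group means correlated at −0.02 to 0.78. Whole reads (22424406 to 42622056 per library) were recovered, with 99.66% to 99.96% of values up to 20 reads within 0.05 of a whole number, and tested with voom as an alternative. Shares of all genes called by voom are not given here. With the mouse as a block, the guide p-values measure how far the changes within mice disagree, pooled over the genotypes. The genotype p-values measure the spread between the 2 mice of a genotype, also pooled over the genotypes. The test was tried on data with known answers. Genes named are the members that passed, those with the smallest p and those that differed most between mice, and up to 4 genes of each other list. Some genes are not reported here. Members and lists were chosen with earlier results of these data known.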

Additional observations from a re-analysis of the deposited data

Results flagged for a closer look

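The effect of both guides against gMock differed between genotypes, by the test of the difference itself (limma, adjusted p under 0.05), for 13 members between +/+;Cas9/+ and Pro/+; +/+ cells. The log2 differences, +/+;Cas9/+ minus Pro/+; +/+, were −2.35 for Bst2, −2.93 for Cxcl10, −1.34 for Herc6, −1.04 for Ifi35, −3.0 for Ifi44, −3.75 for Isg15, −1.46 for Oas1a, −1.19 for Oasl1, −3.06 for Oasl2, −1.38 for Parp9, −1.80 for Rsad2, −2.45 for Rtp4 and −1.21 for Uba7. For 2 members the effect differed between Pro/Pro;Cas9/+ and +/+;Cas9/+ cells, with log2 differences, Pro/Pro;Cas9/+ minus +/+;Cas9/+, of 1.14 for Herc6 and 1.0 for Ifitm3. All 15 rest on the 2 +/+;Cas9/+ gMock libraries and were lost without either of them. Most of these calls were also lost when another single library of the genotypes compared was left out. Oas1a, Oasl1 and Rsad2 met the filter only through the +/+;Cas9/+ gMock libraries and so had to be high there.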

How the results depend on the processing

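Counts of called members are given here, and the cause of each change was not tested. For most alternatives the share of all genes called is not given. A change in the members therefore cannot be told apart from a change in calls over all genes. For both guides against gMock, +/+;Cas9/+ cells gave 10 when the other genotypes were left out of the fit. gLmna-1 against gMock gave 0 in Pro/Pro;Cas9/+ cells without a filter, with quantile normalization and with the other genotypes left out; in +/+;Cas9/+ cells it gave 13 without a filter and 1 with the other genotypes left out; over 6 mice it gave 0 with a pseudocount of 0.1, without a filter and without the +/+;Cas9/+ mice, and 1 with quantile normalization. gLmna-2 against gMock gave 12 (pseudocount 0.1), 6 (no filter) and 0 (other genotypes left out) in +/+;Cas9/+ cells, and 1 (no filter) over 6 mice. gLmna-2 against gLmna-1 in Pro/Pro;Cas9/+ cells gave 6 (pseudocount 0.1 or voom), 5 (filter of 5 FPKM) and 0 (other genotypes left out). The difference of guide effects between Pro/Pro;Cas9/+ and +/+;Cas9/+ cells gave 1 (pseudocount 0.1 or filter of 5 FPKM) and 0 (no filter, quantile normalization or other genotype left out); that between +/+;Cas9/+ and Pro/+; +/+ cells gave 0 (pseudocount 0.1 or filter of 5 FPKM), 2 (no filter), 3 (quantile normalization), 20 (other genotype left out) and 1 (voom). Against +/+;Cas9/+ cells under gMock, Pro/Pro;Cas9/+ gave 0 (no filter or other genotype left out), 2 (mean of 3 libraries per mouse) and 1 (guide libraries alone), and Pro/+; +/+ gave 1, 5 and 2 with no filter, the mean of 3 libraries and guide libraries alone. Of all genes, the mean of 3 libraries called 0.341% for Pro/Pro;Cas9/+ and 1.45% for Pro/+; +/+. Guide libraries alone called 0.595% and 4.33% of all genes, in that order.

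Without the replicate block, both guides in +/+;Cas9/+ cells gave 22 members, gLmna-1 gave 0 in Pro/Pro;Cas9/+ cells and 3 over 6 mice, gLmna-2 against gLmna-1 in Pro/Pro;Cas9/+ cells gave 0, and the differences of guide effects gave 1 for Pro/Pro;Cas9/+ minus +/+;Cas9/+ and 4 for +/+;Cas9/+ minus Pro/+; +/+.

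Leaving out 1 library at a time gave 0 to 25 members for both guides in +/+;Cas9/+ cells, 0 to 19 for gLmna-1 and 0 to 4 for gLmna-2 there. It gave 0 to 1 for both guides, 0 to 4 for gLmna-1 and 1 to 4 for gLmna-2 against gLmna-1 in Pro/Pro;Cas9/+ cells. Over 6 mice it gave 0 to 23 for gLmna-1 and 0 to 2 for gLmna-2 against gLmna-1. The differences of guide effects gave 0 to 6 for Pro/Pro;Cas9/+ minus +/+;Cas9/+ and 0 to 18 for +/+;Cas9/+ minus Pro/+; +/+, and both genotype comparisons with +/+;Cas9/+ cells gave 0 without any 1 of their libraries. A lone library was assumed to vary like the other groups. Of 1120 alternatives for 73 calls of single members, 502 kept the call, 618 lost it and 0 turned the direction. The number of mice, 2 per group, limits the precision, and 8 members had under 1 FPKM on average.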
